A study of Mus musculus with 12 samples.

Results

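The 10 genes described here encode the motor of smooth muscle and the enzymes that switch it on and off: the myosin heavy chains Myh11, Myh9 and Myh10, the light chains Myl9 and Myl6, the light chain kinase Mylk, the phosphatase subunits Ppp1r12a, Ppp1r12b and Ppp1r12c, and the phosphatase inhibitor Ppp1r14a. They were chosen by name and not by a rule on their measured values, but with earlier results of these data known. All 10 were found among the 22180 genes measured, each with 1 probe set of exactly that symbol. Expression was measured on an Affymetrix whole-transcript array in smooth muscle cells cultured from the aorta of the inbred mouse strain C57BL/6J (primary cells at passage 3 to 4). All cells grew in DMEM with 10% FCS. One group of 6 arrays had 0.3 g/l (1.7 mM) glucose and the other group of 6 had 4.5 g/l (25 mM). The series text gives 14 days of culture and the sample labels 1 week. The labels do not say whether the 6 replicates of a group came from separate cultures or animals, so the p-values measure no more than the spread between these arrays, and that spread may be technical. No osmotic control entered the comparison made here.

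Smooth muscle contracts when myosin II, a complex of a pair of heavy chains with essential and regulatory light chains, pulls on actin filaments. Calcium-bound calmodulin activates myosin light chain kinase, which phosphorylates the regulatory light chain and so turns the motor on. Myosin phosphatase, made of a catalytic subunit and a targeting subunit of the Ppp1r12 family, removes that phosphate. The inhibitor CPI-17 (Ppp1r14a) and the kinase ROCK restrain the phosphatase, which makes the muscle more sensitive to calcium. High levels of Myh11 are a hallmark of contractile smooth muscle cells, and cultured cells are known to lose it as they become proliferative.

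Of the 10 genes, 8 rose in 4.5 g/l glucose: Myh11, Myh9, Myh10, Myl9, Mylk, Ppp1r12a, Ppp1r12b and Ppp1r14a. Myl6 and Ppp1r12c did not pass the test. The test was limma on log2 values with p-values adjusted by Benjamini-Hochberg across the 22180 genes and called under 0.05, and by it 7.01% of all genes were called higher and 8.52% lower (15.5% in either direction). The median log2 difference, always taken as 4.5 minus 0.3 g/l, was 1.07 over the 10 genes and -0.01 over all genes. In 6 of the 10 genes every 4.5 g/l array lay above every 0.3 g/l array, which held for 3.49% of all genes. It was 2.90% of all genes in the other direction, and 0 of the 10. The count of 8 was also found without 0.3 g/l replicate 4 and when each other array was left out.

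Replicate 4 of the 0.3 g/l group stood apart from the rest of its group, so the 10 genes are given with and without it. Whether it holds the sample its label names cannot be told from these values, and each 0.3 g/l mean over 6 arrays includes it. On the first principal component it lay at 17.2, while the other 5 arrays of its group lay at -30.2 to -24.4 and the 4.5 g/l arrays at 12.5 to 26.2. The 4.5 g/l arrays themselves formed separate sets on the second component, with replicates 1 to 3 between -17.9 and -12.0 and replicates 4 to 6 between 12.6 and 16.1. Over all genes 1555 were called higher and 1889 lower, and without 0.3 g/l replicate 4 these counts were 2288 (10.3%) and 3007 (13.6%). Smooth muscle markers were present, and 7 of 8 rose: their mean lay at 9.80 to 10.06 in the other 5 arrays of 0.3 g/l, at 11.08 in replicate 4 and at 11.43 to 11.62 in 4.5 g/l. Markers of endothelium, the inner lining of the vessel, were measured too. Their medians in 0.3 g/l ran from 5.08 for Robo4 and 5.22 for Cldn5 to 11.24 for Cdh5 and 11.73 for Emcn. Emcn and Cdh5 were thus far from background, whereas Robo4 and Cldn5 lay near the array medians of 4.92 to 5.05. Of 12 endothelial markers 1 fell and 0 rose, and without 0.3 g/l replicate 4 it was 3 that fell. The 1 that fell over all arrays was Emcn, a call lost on leaving out any of 6 arrays (limma adjusted p of 0.0501 to 0.0562). The mean of the 12 endothelial markers was 7.06 in 0.3 g/l replicate 4 and between 7.49 and 7.55 in the rest of that group. It was between 7.49 and 7.62 in the first 3 arrays of 4.5 g/l and between 6.81 and 6.87 in the last 3. Macrophage markers had means of 4.90 to 5.22 over the 12 arrays, striated muscle markers 5.19 to 5.67 and fibroblast markers 6.87 to 7.27, where the lowest 25% of all genes lay below 4.20. The macrophage means thus lay near the array medians, and 2 of the 8 macrophage markers had a mean below 4.20. Of 9 fibroblast markers 2 rose and 1 fell, of 10 striated muscle markers 2 rose and 0 fell, and 0 macrophage markers were called. Marker counts are to be read against the 7.01% of all genes called higher and the 8.52% called lower.

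**Figure D1:**
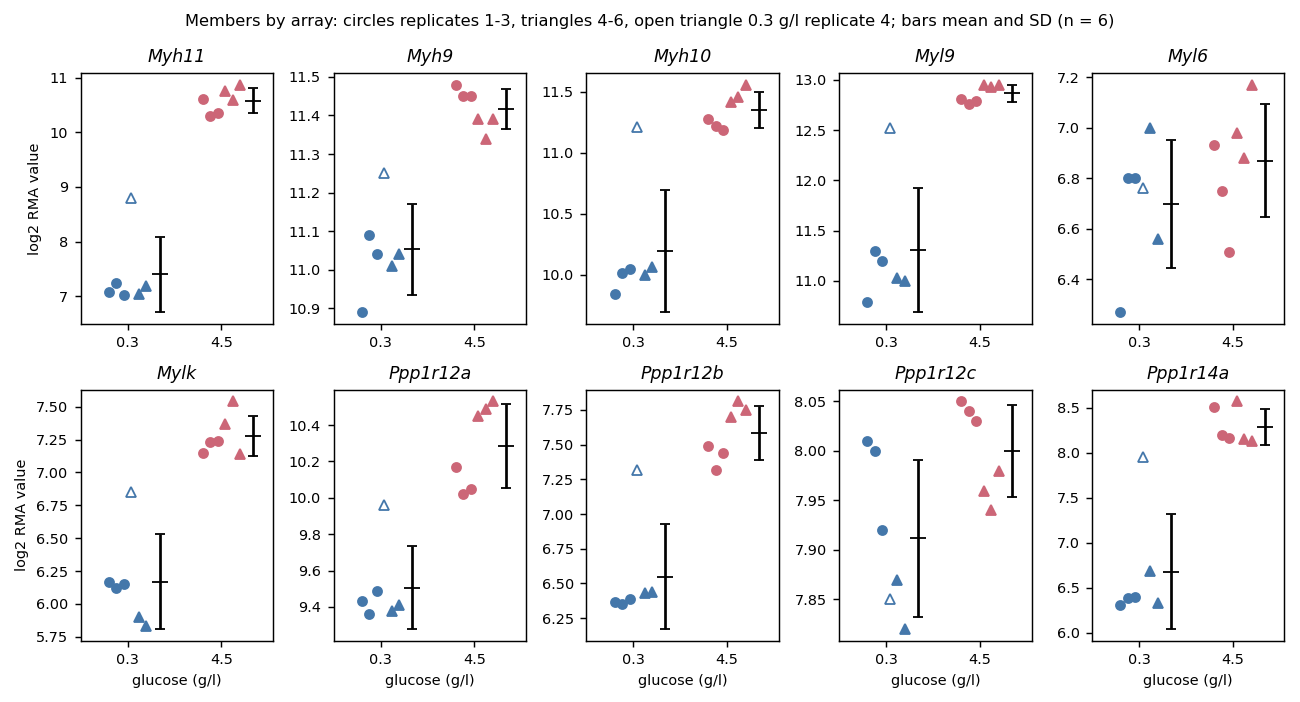
Log2 RMA value (vertical axis, own scale in each panel) of the 10 genes on every array, by glucose concentration in g/l (horizontal axis). Circles are replicates 1 to 3, triangles replicates 4 to 6, the open triangle is 0.3 g/l replicate 4, and the black bars are the mean and SD of 6 arrays. In 8 panels the 4.5 g/l points lie above the other 5 points of 0.3 g/l, with the open triangle between or beside the 4.5 g/l points, whereas in the panels of Myl6 and Ppp1r12c the groups overlap.

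The smooth muscle heavy chain Myh11, the motor subunit specific to smooth muscle, had the largest difference of the 10. Its log2 values in 0.3 g/l were 7.03 at the lowest, 7.13 at the median and 8.80 at the highest, and in 4.5 g/l 10.29, 10.59 and 10.87. The highest 0.3 g/l value was that of replicate 4, the other 5 lay within 7.03 to 7.25, and the groups did not overlap. The mean log2 difference was 3.18 ± 0.26 (SE, n = 6 per group), a 9.07-fold rise (limma adjusted p = 1.22e-05) that ranked 3 among the 22180 differences. Without 0.3 g/l replicate 4 the difference was 3.46 ± 0.10, or 11.0-fold. As these are cultures measured in bulk, fewer cells of a type and less RNA per cell cannot be told apart. The probe set reports the gene as a whole, so its splice forms were not separated.

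The non-muscle heavy chains rose less. Myh10, which encodes non-muscle myosin IIB, had log2 values of 9.84, 10.03 and 11.21 (lowest, median and highest) in 0.3 g/l and of 11.19, 11.35 and 11.56 in 4.5 g/l. Its groups overlapped through 0.3 g/l replicate 4 alone, whose 11.21 lay above the lowest 4.5 g/l value, whereas the other 5 arrays lay at 9.84 to 10.06. The log2 difference was 1.16 ± 0.19 (2.23-fold; limma adjusted p = 0.00116) and 1.36 ± 0.08 without that array. Myh9, which encodes non-muscle myosin IIA, found in nearly all cells, had log2 values of 10.89, 11.04 and 11.25 in 0.3 g/l and of 11.34, 11.42 and 11.48 in 4.5 g/l. Its groups did not overlap, but the step between them was small. The log2 difference of Myh9 was 0.36 ± 0.06, a 1.29-fold rise (limma adjusted p = 0.00188), or 0.40 ± 0.05 without 0.3 g/l replicate 4. Of the 8 genes called, it was the one that did not pass a test against a fold of 1.2 (limma adjusted p = 0.901).

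Of the light chains, the regulatory chain rose and the essential chain did not pass. Myl9 encodes the smooth muscle regulatory light chain, the substrate of the kinase. Its log2 values were 10.79, 11.11 and 12.52 in 0.3 g/l and 12.76, 12.87 and 12.95 in 4.5 g/l. The 12.52 was that of replicate 4, the other 5 arrays lay at 10.79 to 11.30, and the groups did not overlap. The log2 difference was 1.56 ± 0.22 (2.95-fold; limma adjusted p = 0.000568), and 1.80 ± 0.09 without replicate 4. Myl6 encodes the essential light chain shared by smooth muscle and non-muscle myosin. Its log2 values were 6.27, 6.78 and 7.00 in 0.3 g/l and 6.51, 6.91 and 7.17 in 4.5 g/l, so the groups overlapped across most of their range. The log2 difference of Myl6 was 0.17 ± 0.13 with a 95% interval of -0.10 to 0.44 (limma adjusted p = 0.43), which leaves room for a rise of the size seen in Myh9. How fully the 1 probe set of Myl6 reports a change in its RNA was not tested.

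The promoters of the light chains are shown because each holds a CArG box, the site read by serum response factor, a transcription factor of contractile genes. RefSeq windows (GRCm38.p6) from 250 bases before to 50 after a gene start were on hand for 9 of the 10 genes, in 11 windows, and both strands were searched. The gene without a window was Myh11, so its promoter was not searched. A CArG box was found in 1.63% of all 32851 windows, and at any start of 1.81% of 27025 genes. Among the 9 genes it was found in 2, Myl9 and Myl6. In Myl9 it spans 161 to 152 bases before the start, and in Myl6 it spans 50 to 41 bases before one of its starts. The MCAT motif (CATTCC), bound by TEAD factors, was found in 14.7% of windows and in 16.6% of genes, and in 3 of the 9 genes: Mylk, Myh10 and Ppp1r12b. It overlaps no CArG box in these windows. Such matches describe letters only. The stretches below run 5′ to 3′ on the gene's strand, with the motifs in capitals: 250 bases before the start of Myl9 (chr2:156775214-156775463, plus strand), 40 bases of Myl6 (chr10:128493035-128493074, minus strand) and 67 bases of Ppp1r12b with a pair of MCAT motifs in opposite directions (chr1:134803878-134803944, minus strand).
Myl9: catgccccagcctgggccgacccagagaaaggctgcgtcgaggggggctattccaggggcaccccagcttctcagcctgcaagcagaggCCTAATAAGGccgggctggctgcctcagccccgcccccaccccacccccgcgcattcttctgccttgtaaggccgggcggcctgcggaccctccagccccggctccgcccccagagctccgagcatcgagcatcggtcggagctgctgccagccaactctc
Myl6: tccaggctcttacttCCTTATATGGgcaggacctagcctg
Ppp1r12b: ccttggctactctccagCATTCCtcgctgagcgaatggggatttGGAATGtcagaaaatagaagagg

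The kinase gene rose. Mylk, the source of both the smooth muscle and the longer non-muscle light chain kinase, had log2 values of 5.83, 6.14 and 6.85 in 0.3 g/l and of 7.14, 7.23 and 7.54 in 4.5 g/l. Replicate 4 was again the highest 0.3 g/l array, the other 5 lay at 5.83 to 6.17, and the groups did not overlap. The log2 difference was 1.11 ± 0.14 (2.16-fold; limma adjusted p = 0.000333), and 1.24 ± 0.09 without replicate 4. The products of this gene, which include the short protein telokin, were not separated by the 1 probe set.

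Of the targeting subunits of myosin phosphatase, 2 of 3 rose. Ppp1r12a encodes MYPT1, the main targeting subunit of smooth muscle. Its log2 values were 9.36, 9.42 and 9.96 in 0.3 g/l and 10.02, 10.31 and 10.53 in 4.5 g/l. The groups did not overlap, although replicate 4 of 0.3 g/l, at 9.96, came within reach of the lowest 4.5 g/l array. The log2 difference was 0.78 ± 0.12 (1.72-fold; limma adjusted p = 0.000962), and 0.87 ± 0.10 without replicate 4. Within 4.5 g/l, replicates 1 to 3 had Ppp1r12a values between 10.02 and 10.17 and replicates 4 to 6 had values between 10.45 and 10.53, so the size of its rise depended on which arrays were used.

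Ppp1r12b encodes MYPT2, the related subunit known best from heart and brain. Its log2 values were 6.35, 6.41 and 7.32 in 0.3 g/l and 7.32, 7.59 and 7.81 in 4.5 g/l. The 7.32 in 0.3 g/l belonged to replicate 4, and it was that array alone that made the groups overlap. The log2 difference was 1.03 ± 0.15 (2.04-fold; limma adjusted p = 0.000754), and 1.19 ± 0.09 without replicate 4. Ppp1r12c, which encodes the third member of the family, had log2 values of 7.82, 7.90 and 8.01 in 0.3 g/l and of 7.94, 8.00 and 8.05 in 4.5 g/l. These groups overlapped, and here replicate 4 of 0.3 g/l, at 7.85, lay within the 7.82 to 8.01 of the other 5 arrays. The log2 difference of Ppp1r12c was 0.09 ± 0.06 with a 95% interval of -0.03 to 0.21 (limma adjusted p = 0.333), an interval whose upper end is below the differences of the 8 genes that rose.

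The phosphatase inhibitor rose as well. Ppp1r14a encodes CPI-17, which blocks the phosphatase once protein kinase C or ROCK has phosphorylated it. Its log2 values were 6.31, 6.39 and 7.95 in 0.3 g/l and 8.13, 8.18 and 8.57 in 4.5 g/l. Replicate 4 held the 7.95, the other 5 arrays lay at 6.31 to 6.69, and the groups did not overlap. The log2 difference was 1.61 ± 0.24 (3.05-fold; limma adjusted p = 0.000677), the second largest of the 10, and it was 1.87 ± 0.10 without replicate 4, or 3.65-fold.

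**Figure D2:**
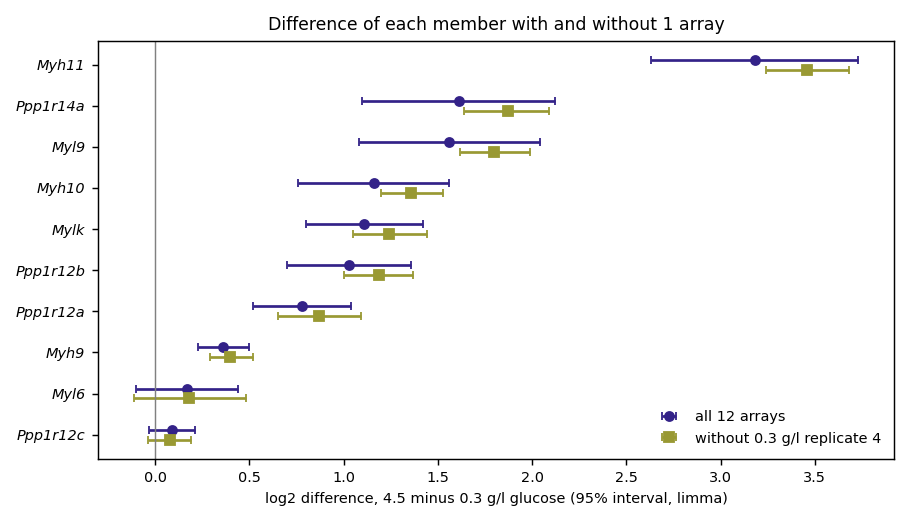
Log2 difference between 4.5 and 0.3 g/l glucose (horizontal axis) of each of the 10 genes (vertical axis), with its 95% interval from limma. Circles use all 12 arrays and squares leave out 0.3 g/l replicate 4. Myh11 stands farthest right at 3.18, the intervals of Myl6 and Ppp1r12c include 0, and the intervals of the other 8 genes lie wholly above 0 in both series of points.

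Set on the way from the mean of the other 5 arrays of 0.3 g/l to the mean of 4.5 g/l, 0.3 g/l replicate 4 had covered 48.5% for Myh11 and 57.2% for Myh9. For Myh10 the figure was 89.1%, for Myl9 80.9%, and for Ppp1r14a 82.2%. It was 65.9% for Mylk, 62.2% for Ppp1r12a and 78.0% for Ppp1r12b. This array therefore lay between the means in all 8 genes that rose, at no single proportion, and for Myh10 and Ppp1r12b it reached the range of the 4.5 g/l arrays.

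The arrays were also compared within the number ranges 1 to 3 and 4 to 6, which part the 4.5 g/l arrays. Within replicates 1 to 3 all 8 genes passed again in limma, where 5.92% of all genes were called higher and 7.16% lower, with a log2 difference of 3.30 for Myh11, 1.93 for Ppp1r14a, 1.69 for Myl9 and 0.65 for Ppp1r12a. Of the 12 endothelial markers 1 rose and 1 fell in those arrays, with log2 differences from -0.45 for Tek to 0.40 for Erg. Their part in the differences of the 8 genes was not tested. Within replicates 4 to 6, where 0.0947% of all genes were called higher and 0.0406% lower, 0 of the 10 genes passed. There 8 had an unadjusted p under 0.05, and the adjusted p of the 8 genes ran from 0.0605 for Myh11 to 0.247 for Myh9, with log2 differences of 3.07 and 0.27. With 0.3 g/l replicate 4 left out of that range, the 8 passed again, with a log2 difference of 3.63 for Myh11 and 1.09 for Ppp1r12a, and 6.55% of all genes were called higher and 8.94% lower. In that same subset 10 of the 12 endothelial markers fell, and their part in the result was not tested. Marker means of endothelium, fibroblasts, macrophages, adipocytes and nerve were lower in 4.5 g/l replicates 4 to 6 than in replicates 1 to 3, those of smooth and striated muscle were higher, and their part in the differences between those arrays was not tested.

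The unequal sizes of these rises were tested in 9 pairs of genes, which were chosen with earlier results of these data known. On each array the log2 value of one gene was subtracted from that of the other, and the groups were compared by a two-sided exact permutation test over 924 assignments, for which the smallest p possible was 0.00216. P-values were adjusted over the 9 pairs, and the groups in each had 6 arrays. Myh11 rose by 2.82 ± 0.27 (log2, SE) more than Myh9 (exact p = 0.00216, adjusted p = 0.00649), and by 2.02 ± 0.10 more than Myh10 (exact p = 0.00216, adjusted p = 0.00649). The gap between Myh11 and Myh10 lay between -3.02 and -2.41 on the 0.3 g/l arrays and between -0.93 and -0.65 on the 4.5 g/l arrays, with replicate 4 of 0.3 g/l at -2.41 and the other 5 arrays of that group at -3.02 to -2.76. Myh9 changed less than Myh10 by 0.80 ± 0.18 (written as Myh9 minus Myh10, -0.80; exact p = 0.00866, adjusted p = 0.013). The regulatory chain Myl9 rose by 1.39 ± 0.25 more than Myl6 (exact p = 0.00216, adjusted p = 0.00649). That gap is between 1 probe set of each gene, and how fully the one of Myl6 reports a change was not tested.

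Among the switch enzymes the gaps were smaller. Mylk rose by 0.33 ± 0.12 more than Ppp1r12a, with overlapping groups (exact p = 0.0238, adjusted p = 0.0268). Ppp1r12b rose by 0.25 ± 0.07 more than Ppp1r12a (exact p = 0.013, adjusted p = 0.0167), by 0.39 within replicates 1 to 3 and by 0.11 within replicates 4 to 6. The inhibitor Ppp1r14a rose by 0.83 ± 0.22 more than the targeting subunit Ppp1r12a (exact p = 0.00866, adjusted p = 0.013), by 1.28 within replicates 1 to 3 and by 0.39 within replicates 4 to 6. Ppp1r12c minus Ppp1r12a changed by -0.69 ± 0.16 (exact p = 0.00649, adjusted p = 0.013). The kinase Mylk rose less than the inhibitor Ppp1r14a (Mylk minus Ppp1r14a, -0.50 ± 0.18; exact p = 0.0281, adjusted p = 0.0281). That last gap did not pass without 0.3 g/l replicate 1 (-0.43), 2 (-0.45) or 3 (-0.45) or without 4.5 g/l replicate 1 (-0.43) or 4 (-0.46), with adjusted p of 0.0519 to 0.0563 in the exact test, and it was -0.87 within replicates 1 to 3 and -0.14 within replicates 4 to 6. Without 0.3 g/l replicate 4 all 9 pairs passed, with adjusted p of 0.00278 to 0.0152 in the exact test.

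**Figure D3:**
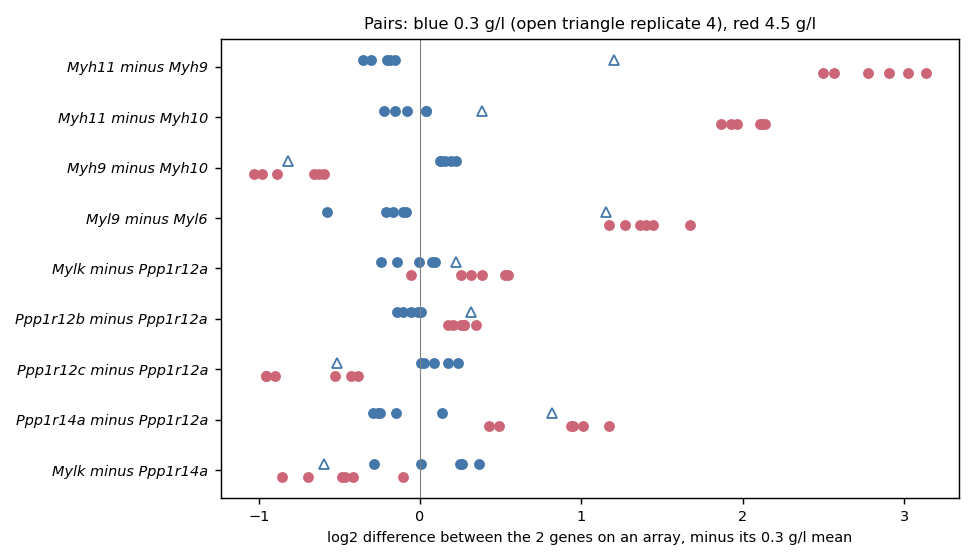
Difference between the log2 values of 2 genes on an array, minus the mean of that difference in 0.3 g/l (horizontal axis), for the 9 pairs (vertical axis). Blue points are 0.3 g/l arrays, with replicate 4 as an open triangle, and red points are 4.5 g/l arrays. Red and blue points are fully apart for Myh11 minus Myh9, Myh11 minus Myh10 and Myl9 minus Myl6, and overlap in the other 6 pairs.

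The genes whose pattern over the 12 arrays was most like that of a member were found by centring each gene on its own mean and taking the mean absolute difference of the log2 values, among 17274 genes with established names. For Myh11 these were Actg2, smooth muscle gamma actin (0.156), the calponin Cnn1 (0.309) and skeletal alpha actin, Acta1 (0.323). Actin genes are near-identical in coding sequence and may share probe signal, so which actin comes first is uncertain. For Mylk they were the kinase gene Mast4 (0.111), the smooth muscle protein smoothelin, Smtn (0.112), and the LIM protein Csrp1 (0.117), with Ppp1r12b the nearest of the other members (0.141). For Ppp1r14a they were the Ras-like GTPase Diras2 (0.119), the methionine sulfoxide reductase Msrb1 (0.15) and Myl9 (0.166). Distances of this kind are smaller for genes that vary little, so those of Myh11 are not comparable with those of Mylk. The values were not scaled, so the measure favours genes with a glucose difference of like size. The log2 differences were 1.06, 1.16 and 1.04 for Mast4, Smtn and Csrp1, beside 1.11 for Mylk. They were 1.58, 1.54 and 1.56 for Diras2, Msrb1 and Myl9, beside 1.61 for Ppp1r14a. Shared regulation was not tested.

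Other genes of the pathway, taken from lists chosen by function, are given with their counts, to be read against the 7.01% of all genes called higher and the 8.52% called lower. No list is set apart from other genes by these counts. Of 4 other non-striated myosin subunits 1 rose: Myl12a, a non-muscle regulatory light chain, by 0.49 ± 0.13 (log2; 1.40-fold; limma adjusted p = 0.021). That call was lost without 0.3 g/l replicate 1 or 2 or 4.5 g/l replicate 4 (limma adjusted p of 0.0508 to 0.0533). Its twin Myl12b differed by -0.05 ± 0.10, the essential chain Myl6b by 0.00 ± 0.10 and the non-muscle heavy chain Myh14 by -0.04 ± 0.08, and none of these 3 passed in limma. Of 17 striated muscle myosins 1 rose, the atrial light chain Myl4 (0.29 ± 0.08, limma adjusted p = 0.0193), a call lost without 0.3 g/l replicate 3 (0.26, limma adjusted p = 0.0501) and with quantile normalization or median centring. The median over that list was 0.03. Of 22 unconventional myosins, which carry cargo or tether membranes, 3 rose and 2 fell, with a median of 0.00. Myo1e rose by 0.64 ± 0.07 (limma adjusted p = 6.89e-05), Myo9b by 0.63 ± 0.12, and Myo18a by 0.26 ± 0.06. Myo19, a mitochondrial myosin, fell by 0.32 ± 0.07, and Myo7a fell by 0.38 ± 0.10, a call lost on leaving out any of 6 arrays (limma adjusted p of 0.0521 to 0.0582).

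Of 11 measured calcium- and calmodulin-linked kinases, 1 rose and 1 fell, with a median of 0.06. Camk2g, a gene of the calmodulin-dependent kinase II family, had log2 values of 8.67, 8.72 and 9.45 (lowest, median and highest) in 0.3 g/l and of 9.46, 9.81 and 9.99 in 4.5 g/l, without overlap, and rose 1.91-fold (limma adjusted p = 0.000669). Without 0.3 g/l replicate 4 the counts were 2 and 1. Dapk1, a death-associated kinase, fell by 0.26 ± 0.07 (log2; limma adjusted p = 0.0304), a call lost on leaving out any of 8 arrays (0.0552 to 0.0712). Dapk3, also called ZIP kinase and able to phosphorylate the regulatory light chain without calcium, differed by 0.02 ± 0.06 and did not pass.

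Of 8 catalytic subunits and relatives of the phosphatase regulators, 1 rose and 2 fell. The catalytic subunit found in myosin phosphatase, Ppp1cb, rose by 0.20 ± 0.06 (1.15-fold; limma adjusted p = 0.0416), a call lost on leaving out any of 10 arrays (0.0511 to 0.0916) and with median centring (0.15, limma adjusted p = 0.108). Its relatives Ppp1ca (0.11 ± 0.08) and Ppp1cc (-0.04 ± 0.07) did not pass. Ppp1r14b, a relative of CPI-17, had log2 values of 8.48, 8.91 and 9.07 in 0.3 g/l and of 8.23, 8.35 and 8.50 in 4.5 g/l, and fell by 0.50 ± 0.09 (limma adjusted p = 0.00218). The direction was thus opposite to that of Ppp1r14a. Ppp1r16b, known as TIMAP and abundant in endothelium, had values of 6.14, 7.18 and 7.49 in 0.3 g/l and of 5.29, 5.86 and 6.54 in 4.5 g/l. It fell by 1.16 ± 0.26 (limma adjusted p = 0.00877), and 0.3 g/l replicate 4, which also had a low endothelial marker mean, held the 6.14; the part of endothelial cells in this result was not tested.

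Of the kinases and GTPases that act on the phosphatase from outside the complex, 3 are given by name whatever their values. Rock1, which encodes a kinase that inhibits myosin phosphatase, had log2 values of 9.72, 9.89 and 10.32 in 0.3 g/l and of 10.37, 10.64 and 10.80 in 4.5 g/l. Its groups did not overlap, and it rose 1.60-fold (log2 difference 0.68 ± 0.11; limma adjusted p = 0.000981). Rhoa, the GTPase upstream of ROCK, differed by 0.05 ± 0.05 and did not pass (limma adjusted p = 0.595). Prkg1, the cGMP-dependent kinase that activates the phosphatase, differed by -0.26 ± 0.18 and did not pass (limma adjusted p = 0.396).

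**Figure D4:**
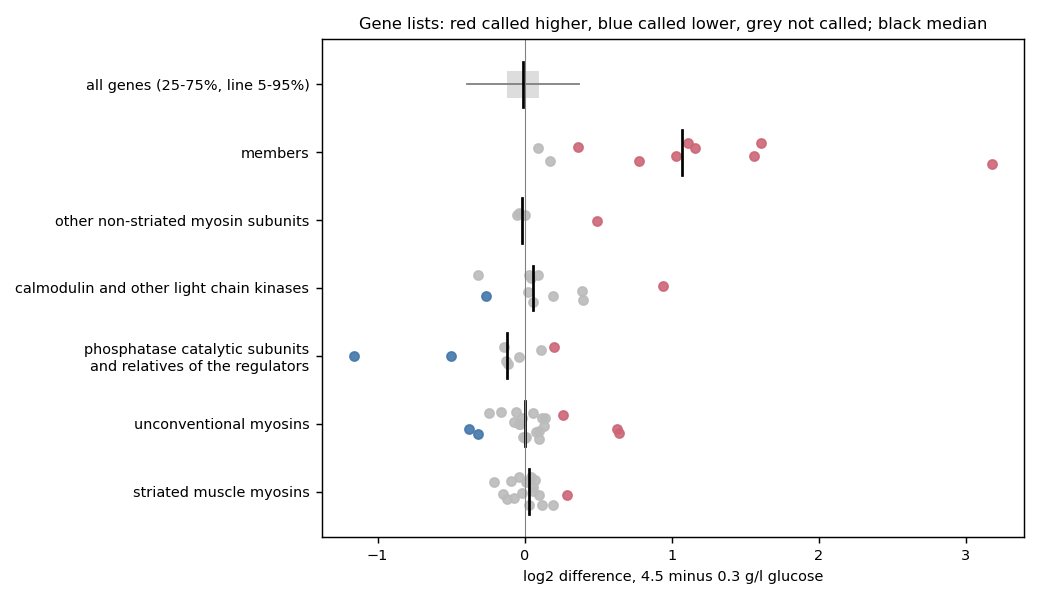
Log2 difference between 4.5 and 0.3 g/l glucose (horizontal axis) of every measured gene in 6 lists (vertical axis), with genes called higher in red, called lower in blue and not called in grey, and a black line at each list's median. The top row gives all 22180 genes, with a box from the 25th to the 75th percentile (-0.12 to 0.10) and a line from the 5th to the 95th (-0.39 to 0.37). The median of the 10 genes described here stands at 1.07, and the medians of the other 5 lists lie between -0.12 and 0.06.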

How the data were processed

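The authors deposited 1 table of log2 values for 41345 probe sets and 12 arrays. The tools named in the submitters' processing notes are Affymetrix Expression Console and RMA, a method of background correction, quantile normalization between arrays and probe summary. Versions and genome build are not given in the sources used here. RMA hides changes of total RNA and compresses differences of dim genes. Arrays give no read depth, and their number limits the precision (median SE of a log2 difference 0.0931).

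Probe sets were named through the platform annotation; 23521 had 1 symbol, 1814 several and 16010 none here. Each of 22180 genes was represented by its probe set with the highest mean. Groups came from the sample labels and were compared with limma 3.58.1 in R 4.3.3 (lmFit and eBayes, two-sided, no block). P-values were adjusted by Benjamini-Hochberg across the genes. The procedure was tested on simulated data. Figures used matplotlib 3.10.9. The members, lists, pairs and alternatives were chosen with earlier results of these data known. Alternatives covered normalization, filters, tests, blocks and each array left out. Levels were not compared between genes. Named were all 10 members, in each other list shown up to 3 called genes per direction by p, the pathway genes that the rule listed by name where measured, and the 3 genes most like Myh11, Mylk and Ppp1r14a. Some genes and 1 list that the rule covers are not reported here. Adipocyte and neural marker lists were also examined; their means lay at 4.79 to 5.25 and 5.65 to 6.13.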

Additional observations from a re-analysis of the deposited data

Results flagged for a closer look

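In 7 of the 20 groups of 6 arrays examined (10 genes at 2 glucose levels), the farthest array lay at a distance from its nearest neighbour of over 0.625 of the group's range. By chance about 1 in 20 groups would be marked, but the genes share the same arrays, so their marks are not independent. All 7 were 0.3 g/l replicate 4, and all 7 lay above the rest of their group. Its log2 value was 8.80 for Myh11, where the other 5 arrays lay at 7.03 to 7.25. It was 11.21 for Myh10 (others 9.84 to 10.06) and 12.52 for Myl9 (others 10.79 to 11.30). For Mylk it was 6.85 (others 5.83 to 6.17), for Ppp1r12a 9.96 (others 9.36 to 9.49), for Ppp1r12b 7.32 (others 6.35 to 6.44) and for Ppp1r14a 7.95 (others 6.31 to 6.69). Myh9, Myl6 and Ppp1r12c had no such array in either group.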

How the results depend on the processing

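Each of the 10 differences kept its sign in all 26 alternatives, but several of these could not change a sign. Settings that changed only the test, the moderation, the filter, the block or the averaging of probe sets left each difference as it was. The count of 8 genes higher fell to 7 in the test against a fold of 1.2 and to 0 within replicates 4 to 6. Leaving out each array gave 8 higher and 0 lower throughout, 1202 to 2288 genes higher and 1303 to 3007 lower overall. Overall counts moved beyond 1.5 times with array weights (2347 higher, 3072 lower), the exact rank-sum test (1025 and 957), the test against a fold of 1.2 (265 and 189), replicates 4 to 6 alone (21 and 9) and, for the lower count, without 0.3 g/l replicate 4 (3007). The replicate numbers did not pair the arrays: correlations of same-numbered deviations ran from -0.046 to 0.173, and 1 of 6 arrays correlated best with its own number. With the replicate block 8 genes were still higher, and 1419 were higher and 1711 lower overall. In the pair tests the block ended the calls of Ppp1r12b minus Ppp1r12a (0.25, adjusted p = 0.0703 in the exact test) and Mylk minus Ppp1r14a (-0.50, 0.0938). With each array left out the 9 gaps ran from 2.75 to 3.06 (Myh11 minus Myh9), 1.98 to 2.10 (Myh11 minus Myh10), -0.96 to -0.75 (Myh9 minus Myh10), 1.27 to 1.62 (Myl9 minus Myl6), 0.28 to 0.41 (Mylk minus Ppp1r12a), 0.22 to 0.32 (Ppp1r12b minus Ppp1r12a), -0.79 to -0.63 (Ppp1r12c minus Ppp1r12a), 0.76 to 1.00 (Ppp1r14a minus Ppp1r12a) and -0.62 to -0.43 (Mylk minus Ppp1r14a). Within replicates 1 to 3, where 3 arrays a group allow no exact test to pass, Ppp1r12b minus Ppp1r12a was 0.39, Ppp1r14a minus Ppp1r12a 1.28 and Mylk minus Ppp1r14a -0.87. Within replicates 4 to 6 these were 0.11, 0.39 and -0.14. In that range without 0.3 g/l replicate 4, Myh11 minus Myh9 was 3.28 and Ppp1r12c minus Ppp1r12a -0.98. The causes were not tested.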
